A study of Mus musculus with 18 samples.

Results

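Among the circRNAs listed by the study as hypermethylated 3 days after middle cerebral artery occlusion (MCAO), 5 were typed as intronic or sense overlapping and not as exonic. Described here are the 4 from the loci of Rn45s, DQ715306, Cmss1 and Calm3, and the other, from Malat1, serves only as a comparison. They are 4 of the 14236 circRNA probes of the array, and were found by probe name: ASCRP4006342 (mmu_circRNA_000807, Rn45s, chromosome 17), ASCRP4007838 (mmu_circRNA_20066, DQ715306, chromosome 1), ASCRP4004008 (mmu_circRNA_005252, Cmss1, chromosome 16) and ASCRP4013892 (mmu_circRNA_19450, Calm3, chromosome 7). The circRNA of Cmss1 was typed as intronic and the other 3 as sense overlapping. The study lists this type apart from exonic and intronic and does not define it. The members were chosen by their m6A level, which was high in the 3d group against the sham group, and all values of that contrast are given below as a description, with no test.

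C57BL/6J mice of 10 weeks formed 3 groups: sham mice, which had the operation without the occlusion, mice taken 3 days after MCAO (3d) and mice taken 7 days after MCAO (7d). MCAO blocks the artery that feeds much of the cortex, and here it was made permanent by coagulating the distal part of the vessel, with both common carotid arteries closed for a short time as well. RNA came from the cortex around the infarct, with 3 samples per group that the labels call biological replicates, and the day on which sham tissue was taken is not given in the sources used here. An antibody against m6A split each RNA sample into a bound fraction (IP, labeled with Cy5) and an unbound fraction (Sup, labeled with Cy3), linear RNA was digested with RNase R, and both fractions were hybridized to 1 array, giving 9 arrays.

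N6-methyladenosine (m6A) is a methyl mark on adenosine that is set by writers such as the METTL3 and METTL14 complex, removed by the erasers FTO and ALKBH5, and bound by readers of the YTH family. CircRNAs are closed loops without free ends, which is why RNase R spares them, and most form when an exon is spliced backward onto an earlier one, while intronic circRNAs come from introns. Rn45s is the precursor from which the RNAs of the ribosome are cut. It is encoded in ribosomal DNA, which is present in many near-identical copies, so that its signal cannot be assigned to 1 copy. Cmss1 is named after a yeast homolog linked to the small ribosomal subunit, and Calm3 is one of the genes that encode calmodulin, the calcium sensor of neurons and other cells.

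On each of the 9 arrays the scanner software marked all 4 probes as well above background in IP and in Sup, and none was saturated or marked as an outlier. The scanned intensity of the Rn45s probe ran from 12360.5 to 19670 in the IP channel and from 71388 to 86764 in the Sup channel, the latter at most 11.1% of the saturation value. The Cmss1 probe gave 11030 to 22181 in IP and 42948 to 68997 in Sup. The DQ715306 probe gave 1279 to 2925 in IP and 7410 to 16662.5 in Sup, and the Calm3 probe 295 to 849 in IP and 1355 to 3323 in Sup. The highest negative control probe of an array read 43 to 77 in IP and 62 to 149 in Sup, so that each of the 4 was read above every negative control. The median circRNA probe of an array read 36.5 to 50 in IP and 53 to 78.5 in Sup, and 12211 of the 14236 circRNA probes, these 4 among them, were bright enough to be tested.

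The arrays of 3d and 7d lay on 1 slide and those of sham on the other. A difference from sham therefore cannot be told apart from a difference between slides, whereas 7d and 3d were compared within a slide. On that slide all 3d arrays lay in row 1 and all 7d arrays in row 2. A difference between 7d and 3d thus cannot be told apart from a difference between rows. In whole tissue, fewer cells of a type and less RNA per cell cannot be told apart either. The gene-named probes of the array hold 0 of the 42 cell type markers and pathway genes looked for, so neither the cortical origin nor the rest of the ribosomal RNA, calmodulin and m6A pathways could be checked on these arrays.

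The m6A level, which is the IP signal as a percentage of IP plus Sup after scaling both channels to spike-in RNA, was higher in 3d than in sham by group mean for all 4 circRNAs, and by 7d it was back in the range of the sham arrays. The plot of the levels by array shows this course. For Rn45s, DQ715306 and Cmss1 every 7d array lay above sham replicates 2 and 3, so the overlap rested on sham replicate 1.

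**Figure D1:**
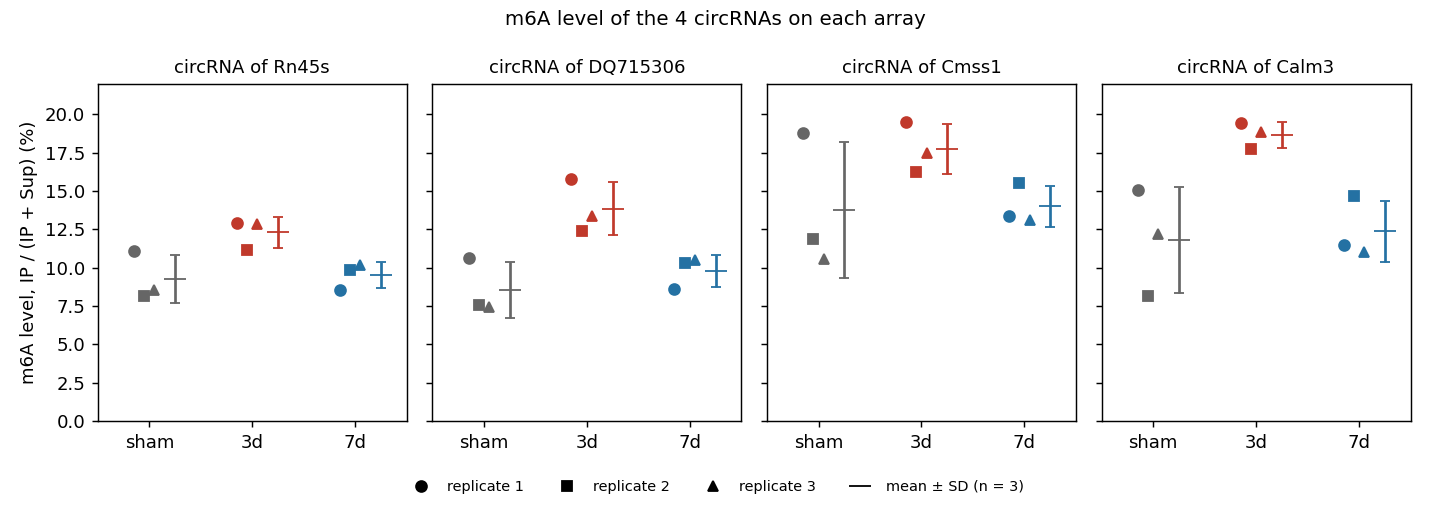
m6A level (%, vertical axis) of each circRNA on each array of the sham, 3d and 7d groups, where each symbol is 1 array and the bars are mean ± SD of 3 arrays. The 3d arrays lie above the 7d arrays for all 4 circRNAs, and sham replicate 1 is the highest sham array in every panel.

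For the circRNA of Rn45s the level on the sham arrays was 11.1%, 8.15% and 8.56%, on the 3d arrays 12.9%, 11.1% and 12.9%, and on the 7d arrays 8.57%, 9.87% and 10.2%, in the order of replicates 1 to 3. The group means were 9.26% ± 1.59 in sham, 12.3% ± 1.02 in 3d and 9.54% ± 0.858 in 7d (SD, n = 3 each). The lowest 3d array lay just above the highest sham array and above all 7d arrays, and the 7d arrays fell inside the range of sham.

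For DQ715306 the sham arrays read 10.6%, 7.57% and 7.44%, the 3d arrays 15.8%, 12.4% and 13.4%, and the 7d arrays 8.60%, 10.3% and 10.5%. The means were 8.55% ± 1.81, 13.9% ± 1.74 and 9.80% ± 1.05 (SD, n = 3 each). Here too the 3d arrays were all above those of both other groups, and 7d and sham overlapped.

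For the intronic circRNA of Cmss1 the sham arrays read 18.8%, 11.9% and 10.5%, the 3d arrays 19.5%, 16.2% and 17.5%, and the 7d arrays 13.4%, 15.5% and 13.1%. The means were 13.7% ± 4.43, 17.7% ± 1.65 and 14.0% ± 1.32 (SD, n = 3 each). Sham replicate 1 lay within the range of the 3d arrays, so that sham and 3d overlapped for this circRNA, while every 3d array stayed above every 7d array.

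For Calm3, whose probe was the dimmest of the 4, the sham arrays read 15.1%, 8.16% and 12.2%, the 3d arrays 19.4%, 17.8% and 18.8%, and the 7d arrays 11.5%, 14.7% and 11.03%. The means were 11.8% ± 3.47, 18.7% ± 0.826 and 12.4% ± 1.99 (SD, n = 3 each). The 3d arrays stood apart from both other groups. The spread of sham was several times that of 3d.

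In the contrast by which the 4 were chosen, the mean level in 3d exceeded that in sham by 3.05 percentage points for Rn45s, 5.31 for DQ715306, 3.99 for Cmss1 and 6.86 for Calm3. As log2 changes of the level these were 0.42 (SE 0.12), 0.71 (SE 0.15), 0.41 (SE 0.19) and 0.70 (SE 0.20), beside a median of -0.03 over all tested circRNA probes. The groups did not overlap for 3 of the 4, and 9.88% of all tested probes were apart with 3d higher, a count from which nothing is read here because the choice fixed it. Single sham arrays moved these values: the change of Cmss1 was 0.66 without sham replicate 1 and 0.24 without sham replicate 3, and that of Calm3 was 0.46 without sham replicate 2. On the deposited log2 values, whose signals the authors' software had processed otherwise, the changes were 1.07, 1.095, 1.03 and 1.00 in the same order. With the processing of this report the level was 1.34-fold for Rn45s, 1.64-fold for DQ715306, 1.33-fold for Cmss1 and 1.63-fold for Calm3. Rn45s and Cmss1 thus lay below the study's threshold of 1.5-fold here.

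From 3d to 7d the mean level of all 4 circRNAs was lower, and all 4 means came to lie within 1 SD of the sham mean. The 7d arrays lay below all 3d arrays for 4 of 4, where 1.37% of all tested probes were apart in that direction. By limma with Benjamini-Hochberg adjustment over all 12211 tested probes, 3 of the 4 were lower at an adjusted p under 0.05, beside 0.565% of all tested probes called lower. The level of Rn45s fell by 0.37 on the log2 scale (SE 0.12, adjusted p = 0.0486 by limma), that of DQ715306 fell by 0.50 (SE 0.15, adjusted p = 0.0354) and that of Calm3 fell by 0.60 (SE 0.20, adjusted p = 0.0442). For Cmss1 the log2 change was -0.34 (SE 0.19, adjusted p = 0.166 by limma), which did not pass. The 3d arrays had also served to choose the 4 circRNAs, so these p-values are not independent of the choice. The same holds for the 4 of 4 that lay apart. Neither carries support of its own.

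The calls from 3d to 7d were close to the threshold. Same-numbered 3d and 7d arrays deviated together from their group means, and with the replicate number of the titles as a block only DQ715306 passed (adjusted p = 0.0474 by limma), with Rn45s at 0.0622 and Calm3 at 0.0618. For replicates 2 and 3 of 7d and replicate 3 of sham the descriptions give another number than the titles, so that the meaning of these numbers, and with it of the block, is not certain. Leaving out any array of 3d, or replicate 1 or 3 of 7d, left 0 of the 4 called, as did centring each array on its median circRNA. The changes stayed below 0 under every setting tried, all of which drew on 3d arrays that had served in the choice. With a fold change of more than 1.5 and an unadjusted p under 0.05 as the rule, 1 of the 4 (Calm3) was called lower, beside 0.106% of the tested probes. The plot of the settings gives each value.

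Over the whole array the direction was the opposite. The median change of the level from 3d to 7d was 0.19 (log2), and the estimate was higher in 7d for 88.8% of the tested probes. Relative to that median the 4 circRNAs were lower by more: their changes minus the median were -0.55 for Rn45s, -0.68 for DQ715306, -0.53 for Cmss1 and -0.79 for Calm3. Ranked from the lowest change of all 12211 probes, Calm3 stood at place 13, DQ715306 at 38, Rn45s at 100 and Cmss1 at 134. The 4 were chosen for a high level on the 3d arrays, which by itself favors low changes and low places here. Nothing is read from these offsets and ranks. The rise of the array as a whole depended on the scaling. With all spike-in probes in place of the 10 used by the authors, the median change was -0.05, and 9 probes were called higher against 134 lower, whereas the main scaling called 3728 higher and 69 lower. The changes of the 4 circRNAs were then -0.67 for Rn45s, -0.78 for DQ715306, -0.61 for Cmss1 and -0.85 for Calm3.

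**Figure D2:**
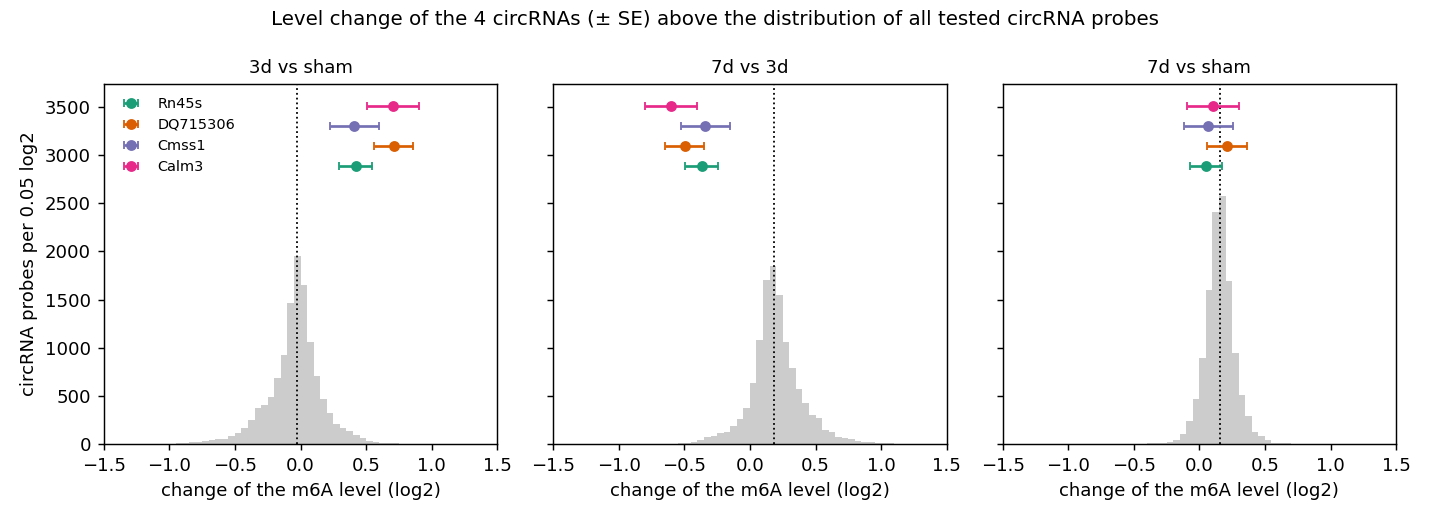
Change of the m6A level (log2, horizontal axis) of the 4 circRNAs (points, ± SE) in each comparison, drawn above the number of tested circRNA probes per bin of 0.05 (gray bars, vertical axis), with the dotted line at the median of all tested probes. The 4 points lie to the right in 3d vs sham, by which they were chosen, to the left in 7d vs 3d, and around the median of 0.15 in 7d vs sham.

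Between 7d and sham no difference was detected. The mean level of 7d exceeded that of sham by 0.278 percentage points for Rn45s, 1.26 for DQ715306, 0.253 for Cmss1 and 0.580 for Calm3, and the groups overlapped for all 4, where 31.7% of all tested probes were apart with 7d higher. The log2 changes were 0.05 (SE 0.12, adjusted p = 0.751), 0.21 (SE 0.15, adjusted p = 0.317), 0.07 (SE 0.19, adjusted p = 0.780) and 0.10 (SE 0.20, adjusted p = 0.691 by limma) in that order. The median change of all tested probes was 0.15, so that DQ715306 lay above it and the other 3 below. By limma 0 of the 4 were called with 0% of the tested probes called in either direction, and 0 had an unadjusted p under 0.05, beside 24.2% of the tested probes. The test named in the study's methods, run on the same signals as limma, also called 0, before and after adjustment. The standard errors were as large as the changes or larger for all but DQ715306. With 0% of the tested probes called, changes of this size or larger, in either direction, could have gone undetected here. The sign also turned with the scaling: with each array centred on its median circRNA all 4 were below 0. Without sham replicate 1 the changes were 0.19 for Rn45s, 0.38 for DQ715306, 0.32 for Cmss1 and 0.30 for Calm3, and none was called. The sham arrays had served in the choice as well.

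**Figure D3:**
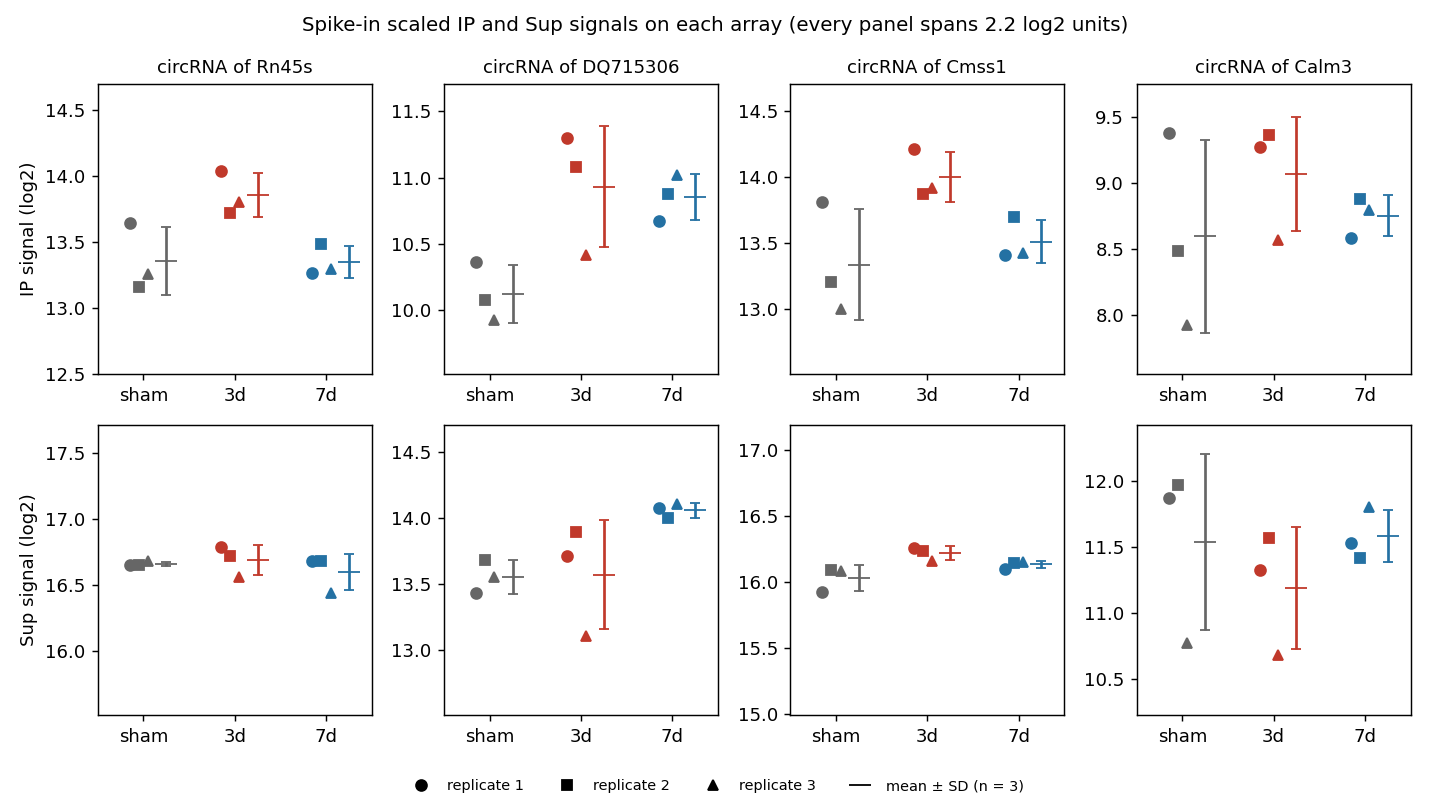
IP signal (upper row) and Sup signal (lower row) of each circRNA on each array, in log2 units after scaling to spike-in RNA, where each symbol is 1 array and the bars are mean ± SD of 3 arrays. The IP signals of Rn45s and Cmss1 are lower in 7d than in 3d with little movement in Sup under this scaling. On the processed signals the Sup changes of both turn positive. For DQ715306 the Sup signal is highest in 7d, and the mean Sup signal of Calm3 is also higher in 7d than in 3d.

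The level is a ratio, so its parts were examined as well. In 3d against sham, the choosing contrast, the IP signal was higher by 0.50 for Rn45s, 0.81 for DQ715306, 0.66 for Cmss1 and 0.47 for Calm3 (log2), while the Sup signal differed by 0.03, 0.02, 0.19 and -0.35. On the processed signals of the scanner software the IP changes were 0.72, 0.90, 0.98 and 0.57, and those of Sup were -0.47, -0.31, -0.22 and -0.56. The higher IP was thus seen with both kinds of signal, whereas the direction in Sup turned with the processing for Rn45s, DQ715306 and Cmss1. For Calm3 single arrays also mattered: its IP change was 0.14 without sham replicate 3 and 0.86 without sham replicate 1, and its Sup change ran from -0.73 without sham replicate 3 to -0.093 without 3d replicate 3. The Sup change of DQ715306 was 0.25 without 3d replicate 3.

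The IP signal of Rn45s was 13.36 ± 0.26 in sham, 13.86 ± 0.16 in 3d and 13.35 ± 0.12 in 7d (log2, SD, n = 3 each), and its Sup signal was 16.66 ± 0.02, 16.69 ± 0.12 and 16.60 ± 0.14. The IP signal of Cmss1 was 13.34 ± 0.42, 14.00 ± 0.19 and 13.51 ± 0.16, and its Sup signal 16.03 ± 0.10, 16.22 ± 0.05 and 16.13 ± 0.03. For this bright pair of probes the group means of IP moved more than those of Sup with this scaling. From 3d to 7d their Sup changes were -0.09 for Rn45s and -0.08 for Cmss1, but 0.38 and 0.31 on the processed signals, where the median of all tested probes in Sup was -0.59 in place of -0.02, so the direction in Sup is not settled. From 3d to 7d the IP change was -0.50 for Rn45s and -0.49 for Cmss1, and every 7d array lay below every 3d array in IP for both, where 3.91% of all tested probes were apart with 7d lower. Neither passed the test (adjusted p = 0.689 for each by limma), and the 3d arrays had served in the choice here as well.

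DQ715306 had another course than Rn45s and Cmss1. Its IP signal was 10.12 ± 0.22 in sham, 10.93 ± 0.46 in 3d and 10.85 ± 0.18 in 7d (log2, SD, n = 3 each), and its Sup signal was 13.56 ± 0.13, 13.57 ± 0.41 and 14.06 ± 0.06. In IP the sham arrays read 10.36, 10.08 and 9.92 and the 7d arrays 10.67, 10.87 and 11.02. In Sup the sham arrays read 13.43, 13.69 and 13.56, the 3d arrays 13.72, 13.90 and 13.11, and the 7d arrays 14.08, 14.00 and 14.11. Every 7d array thus read above every sham array in IP, as did 35.5% of all tested probes, and in Sup, as did 8.83%. In Sup the 3d arrays spread widest, with replicate 3 the lowest of the 9 arrays.

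The expression of DQ715306, taken as IP plus Sup, was 13.69 ± 0.10 in sham, 13.79 ± 0.41 in 3d and 14.21 ± 0.06 in 7d (log2, SD, n = 3 each). From sham to 7d its log2 change was 0.73 in IP (SE 0.26, adjusted p = 0.252 by limma), 0.50 in Sup (SE 0.20, adjusted p = 0.409 by limma) and 0.52 in expression (SE 0.22, adjusted p = 0.408 by limma). From 3d to 7d it was 0.49 in Sup (SE 0.20, adjusted p = 0.138 by limma) and 0.42 in expression (SE 0.22, adjusted p = 0.434 by limma), and these were 0.25 and 0.18 without 3d replicate 3. None of these passed. From the highest change down, DQ715306 ranked at place 12 of 12211 in IP, 81 in Sup and 80 in expression for 7d against sham. On the processed signals its change from 3d to 7d was 0.92 in Sup (adjusted p = 0.017 by limma) and 0.83 in expression (adjusted p = 0.0374), so that both passed there.

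The circRNA of Calm3 varied widely in both signals between the arrays of sham and of 3d. Its IP signal was 8.59 ± 0.73 in sham, 9.06 ± 0.43 in 3d and 8.75 ± 0.15 in 7d (log2, SD, n = 3 each), and its Sup signal 11.54 ± 0.67, 11.19 ± 0.46 and 11.58 ± 0.20. Replicate 3 was the lowest array of sham and of 3d in both fractions: sham read 9.37, 8.48 and 7.92 in IP and 11.87, 11.97 and 10.77 in Sup, and 3d read 9.27, 9.36 and 8.57 in IP and 11.32, 11.57 and 10.68 in Sup. Within 3d the 2 fractions moved together, and the level, in which a shared shift cancels, ran only from 17.8% to 19.4%. In sham they did not always do so: from replicate 1 to replicate 2 IP was lower and Sup was not. The sham levels ran from 8.16% to 15.1%. From 3d to 7d the IP change was -0.32 (SE 0.32, adjusted p = 0.689 by limma), and it was -0.17 without 3d replicate 2 and -0.56 without 3d replicate 3. The Sup change of Calm3 was 0.39 (SE 0.28, adjusted p = 0.496 by limma), upward as for DQ715306. It was 0.58 without 3d replicate 2, 0.14 without 3d replicate 3 and 0.77 on the processed signals.

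In IP, Sup and expression, 0 of the 4 circRNAs were called by limma in either 7d comparison, beside 0.557% (IP), 12.7% (Sup) and 4.15% (expression) of all tested probes in 7d against 3d and 0.0409%, 0.205% and 0.213% in 7d against sham. At an unadjusted p under 0.05 there was 1 of 4 in IP (Rn45s) and 1 in Sup (DQ715306) of 7d against 3d, beside 2.55% and 23.7% of all tested probes, and 0 in expression, beside 13.3%. In 7d against sham DQ715306 was the 1 of 4 in IP, Sup and expression, beside 10.5%, 9.26% and 8.42%. In IP of 7d against sham it also had a fold change of more than 1.5, as did 4.57% of the tested probes in that direction with an unadjusted p under 0.05. After adjustment the test named in the study's methods, run on the same signals as limma, called 0 in each.

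**Figure D4:**
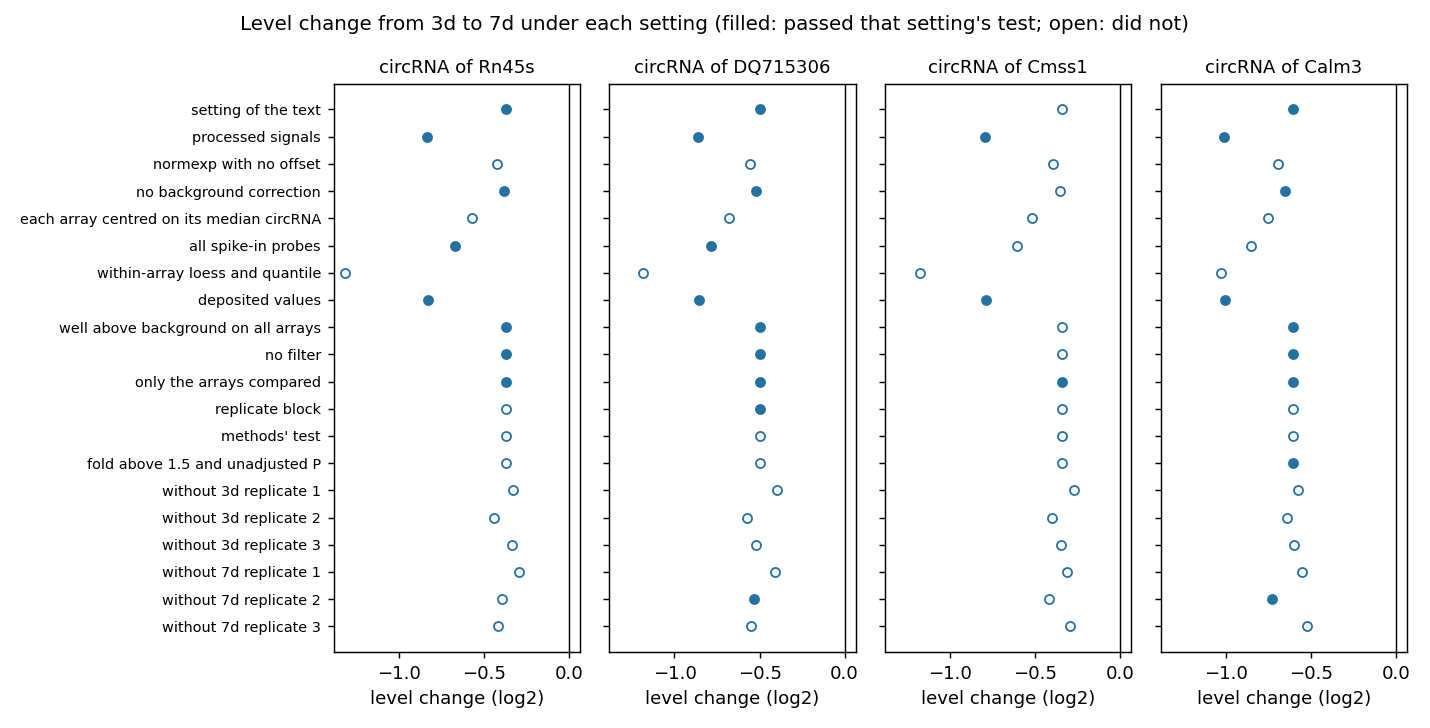
Change of the m6A level from 3d to 7d (log2, horizontal axis) of each circRNA under each processing setting (rows), with filled points where that setting's test was passed and open points where it was not. All points lie below 0, and Calm3 ranges from -1.03 to -0.52 over them.

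The levels of the 4 circRNAs over the 9 arrays were compared with each other after subtracting each probe's own mean. The root mean square difference of the log2 level was 0.14 between Rn45s and DQ715306 and also between Rn45s and Cmss1, 0.17 between DQ715306 and Cmss1, and from 0.20 to 0.23 between Calm3 and the others. Since all 4 were chosen for the same contrast, a likeness of this kind was built in. Among 12098 probes measured on all arrays, the closest to Rn45s was ASCRP4001442 at 0.05, followed by ASCRP4007331 at 0.06 and ASCRP4000912 at 0.07. The closest to DQ715306 were ASCRP4006406 at 0.09, ASCRP4010601 at 0.10 and ASCRP4002452 at 0.10. The closest to Cmss1 were ASCRP4007302 at 0.06, ASCRP4010261 at 0.08 and ASCRP4008976 at 0.09, and the closest to Calm3 were ASCRP4012777 and ASCRP4005674 at 0.15 and ASCRP4009614 at 0.18. DQ715306 ranked 93rd and Cmss1 105th in likeness to Rn45s, so many other probes followed that circRNA more closely than these did.

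As a comparison, the other 6 circRNAs of the same list of hypermethylated ones (from Appl1, Malat1, Anks1b, Arhgap32, Rims1 and Clasp1) changed in level from 3d to 7d by -0.93 to 0.12 (log2, median -0.59). Of these, 5 of 6 were lower and 3 were called lower by limma, against 4 of 4 lower and 3 called here, where the median was -0.43. The lists of the study hold 6 other intronic or sense overlapping circRNAs (from Malat1, Arid2, Cdk8, Ola1, Bmper and XLOC_027457). Only that of Malat1 was listed as hypermethylated in 3d. Their changes ran from -0.69 to 0.29 with a median of -0.12. There 3 were lower (Malat1, Bmper and XLOC_027457) and 3 higher (Arid2, Cdk8 and Ola1), and 1 (Ola1) was called higher. The circRNA of Malat1 belongs to both of these lists. Ola1 had been listed by the study as hypermethylated in 7d against 3d, and Arid2, Bmper and XLOC_027457 as hypomethylated. Anks1b and Arhgap32 of the first list were also listed there as hypomethylated. With the processing of this report the change of Arid2 was 0.20 (SE 0.16, adjusted p = 0.334 by limma), opposite in sign to its listing. Both comparison lists thus hold entries chosen by the contrast shown, and they are no neutral background. The difference between the lists was not tested.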

How the data were processed

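The authors deposited scanner intensity values of 9 arrays with a channel for IP and a channel for Sup, read with Agilent Feature Extraction 11.0.1.1. The log2 values of the deposited table (12251 rows) were made by the authors from processed signals, with the mean of 10 spike-in probes subtracted per channel. Samples were grouped by title. Both files of an array were identical, so the channel of each record was used. No per-sample column was left unused.

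With R 4.3.3 and limma 3.58.1, median intensities were corrected by normexp (offset 50, which draws dim changes toward 0), outlier spots were dropped, spots of a probe averaged, and each channel shifted to the same mean over those 10 probes. Level is IP/(IP+Sup) and expression IP+Sup, both tested as log2. Probes that the software marked as well above background in IP and Sup on 3 or more arrays (12211) entered lmFit and eBayes over all 9 arrays, two-sided, with Benjamini-Hochberg adjustment (adjusted p under 0.05). The 4 circRNAs, comparison lists and tests were chosen with earlier results of these data known. The names of circRNAs come from the study's lists: all 60 entries matched 1 probe each (tolerance 0.0001 on fold change and P). Named are the 4 circRNAs, both comparison lists and, for each of the 4, the 3 probes with the closest level pattern. RefSeq tables held 2 of the 4 host genes. No coordinates or sequences of the circRNAs were used here.

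Same-numbered arrays of 3d and 7d correlated in their deviations from the group means (0.128 to 0.335), as did those of 3d and sham (0.200 to 0.453), but not those of 7d and sham (-0.01 to 0.04). The labels name no shared animal, litter or day for a number. On their slide, replicates 1 and 2 of 3d and 7d shared a column, while replicate 3 did not. The number of arrays limits the precision.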

Additional observations from a re-analysis of the deposited data

Results flagged for a closer look

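The change of the level against sham differed between the time points for 3 of the 4 circRNAs. The effect in 7d minus the effect in 3d was -0.37 for Rn45s, -0.50 for DQ715306 and -0.60 for Calm3 (log2), with adjusted p-values of 0.0486, 0.0354 and 0.0442 by limma. Over all tested probes 0.565% were called lower and 30.5% higher in this difference. With the replicate number as a block DQ715306 still passed (0.0474), and Rn45s (0.0622) and Calm3 (0.0618) did not. Since both effects are taken against the same sham arrays, this is the comparison of 7d with 3d under another name, and it includes the contrast of 3d with sham by which the circRNAs were chosen. For Cmss1 the same difference was -0.34 (adjusted p = 0.166).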

How the results depend on the processing

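The level from 3d to 7d was lower for all 4 circRNAs under every setting run, but the calls were not kept. Settings that changed only the filter, the model or the test left the estimates as they were. Every setting drew on 3d arrays that had served in the choice, so the shared direction carries no support of its own. Of the 4, 0 were called with normexp and no offset (Rn45s -0.42, DQ715306 -0.56, Calm3 -0.69), with each array centred on its median circRNA (-0.57, -0.68, -0.75), with within-array loess (-1.32, -1.18, -1.03) and, after adjustment, with the test named in the methods (-0.37, -0.50, -0.60). At an unadjusted p under 0.05 that test, run on the normexp signals, passed all 4, beside 35.5% of the tested probes. With a change of more than 1.5-fold as well, which is the threshold of the methods, it passed 1 (Calm3), beside 3.01%. This is not the study's own count, because the study used processed signals. On those the changes were -0.83 for Rn45s, -0.86 for DQ715306, -0.79 for Cmss1 and -1.01 for Calm3 (log2), all larger than 1.5-fold. With the replicate number as a block 1 was called, and Rn45s (-0.37) and Calm3 (-0.60) were not. With that threshold on the p-values of limma, 1 was called (Calm3), and Rn45s (-0.37) and DQ715306 (-0.50) were not. All spike-in probes lost Calm3 (-0.85). Cmss1 was called with processed signals (-0.79), deposited values (-0.79) and only the arrays of 3d and 7d in the fit (-0.34), in which 4 were called.

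Leaving out 1 array at a time, Rn45s ranged from -0.44 to -0.29, DQ715306 from -0.57 to -0.40, Calm3 from -0.73 to -0.52 and the number called from 0 to 2, where only the fit without 7d replicate 2 called any (DQ715306 and Calm3). The cause was not tested.

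Level changes from sham to 7d, none called under any setting, changed sign with median centring (Rn45s -0.21, DQ715306 -0.067, Cmss1 -0.18, Calm3 -0.16), with all spike-in probes (Rn45s -0.088, Cmss1 -0.064, Calm3 -0.036), for Calm3 with processed signals (-0.011) and with deposited values (-0.010) and for Rn45s with no background correction (-0.0043). Leaving out 1 array, they ran from -0.033 to 0.19 for Rn45s, -0.099 to 0.32 for Cmss1 and -0.14 to 0.30 for Calm3.

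From sham to 3d, the level changes were larger with processed signals (Rn45s 1.08, DQ715306 1.0998, Cmss1 1.04), deposited values (1.07, 1.095, 1.03) and loess (1.44, 1.36, 1.29, and 1.11 for Calm3). DQ715306 was the 1 member called in Sup from 3d to 7d with processed signals, deposited values and no background correction, and Rn45s was the 1 called there with loess (0.45, against -0.09 in the report). DQ715306 was also the 1 called in expression from 3d to 7d with processed signals and deposited values, and in IP from sham to 7d with no background correction and with the threshold of the methods, by limma and by the test of the methods.

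The slide could not be fitted as a block, because sham lay on a slide of its own. No IP without antibody was among the arrays used, so the level holds an unmeasured background of the pull-down. With 3 arrays per group, adjusted p-values just under the threshold passed or failed with small changes of processing.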
